A study of Mus musculus with 6 samples.

Results

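The sites described are CpGs of mouse satellite windows at which whole-genome bisulfite sequencing gave very many reads. They were chosen by position and by depth, not by methylation. A site was taken when it had 500 or more reads in each of 3 cell lines and lay in 1 of 4 windows of 20 kb, with no maximum on coverage. In build mm9 the windows were chr2:98500001-98520000, chr9:3000001-3020000, chr9:3020001-3040000 and chr11:3080001-3100000. The rule gave 236 sites of the 1006 CpGs in the windows and of 20782144 CpGs in all. The window on chromosome 2 held 59 of them, the first window on chromosome 9 held 57, the second held 77 and the window on chromosome 11 held 43.

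All 3 lines were mouse embryonic stem cells that lacked their own DNMT1, DNMT3A and DNMT3B, so that methylation came with a single added enzyme. The SETD2 knockout line expressed DNMT3B1 and also lacked SETD2. The DNMT3B1 line expressed the same enzyme with SETD2 present, and the DNMT3A2 line expressed DNMT3A2. The sources used here do not give what drove each enzyme, how much of it the cells made, or whether a line was a single clone. For the DNMT3A2 and DNMT3B1 lines the run labels name the sequencer, HiSeq or MiSeq. For the SETD2 knockout line they read single and paired-end instead. The labels list 2 sequencing runs for each line and no separate cultures, so a line was taken as 1 library. Lines are therefore compared without p-values, and the 95% intervals (exact Clopper-Pearson) cover counting error only.

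Major satellite DNA is the tandem repeat that makes up mouse pericentromeric heterochromatin, where it carries H3K9 trimethylation and is heavily methylated in normal cells. DNMT3A and DNMT3B set methylation de novo, and DNMT1 copies it to the new strand at replication. DNMT3B is the member of the family whose loss is best known for undermethylated pericentromeric repeats. SETD2 trimethylates lysine 36 of histone H3 in transcribed genes, a mark read by the PWWP domain of both DNMT3 enzymes. A reference genome holds few copies of such an array, so reads from many copies in the cell can be placed on the same few positions.

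The depth was that of a repeat whose copies share positions. The 236 sites took 13.1% of all CpG reads of the SETD2 knockout, 11.3% of those of DNMT3B1 and 12.2% of those of DNMT3A2. The 5 sites with most reads in a line held 54.0% of these reads in the SETD2 knockout line, 55.2% in the DNMT3B1 line and 55.3% in DNMT3A2 cells. Median reads per site were 8437, 4543 and 5124 in the same order of lines. At the deepest site, position 98503013 of chromosome 2, there were 4386083 reads in the SETD2 knockout line, 4189048 in the DNMT3B1 line and 4801009 in DNMT3A2 cells. With counts of that size the counting error was small beside the differences between sites. It was not small at sites with few methylated reads. At position 3022862 of chromosome 9 the DNMT3B1 line had 3 of 809 reads methylated, with an interval of 0.077 to 1.08%. The sources used here do not say how reads that match several copies were placed, so a site's level is that of the reads placed there, not of a single genomic copy. Neighbouring sites and copies of a site share reads, and are not replicates of a line.

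The satellite label was checked against the spacing of the CpGs, since no mm9 genome was used here and no sequence could be read. Among pairs of CpGs of the same window 20 to 500 bp apart, 234 bp was the distance held by most pairs. It was held by 304 pairs, against a median of 8 pairs per distance, and the next distances were 468 bp with 187 pairs and 58 bp with 118 pairs. The 234 bp distance led in both windows on chromosome 9, with 116 pairs in the first and 177 in the second. Of pairs up to 2000 bp apart, 7.88% in the first and 10.8% in the second of these windows lay within 2 bp of a multiple of 234 bp, which covers 2% of distances.

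The other windows did not share that spacing to the same degree. On chromosome 2 the leading distance was 251 bp with 10 pairs, and 234 bp had 9. The share of pairs at a multiple of 234 bp was 2.28% there, near the 2% of distances that such multiples cover. On chromosome 11 only 2 pairs lay 234 bp apart, the share at a multiple was 1.84%, and the leading distance was 31 bp with 9 pairs. The label was thus borne out by period on chromosome 9, and not on chromosome 11, whose sites are called by their window below. On chromosome 2 it was borne out for a part of the sites at most, since 28 of the 59 were placed in the 234 bp unit below.

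**Figure D1:**
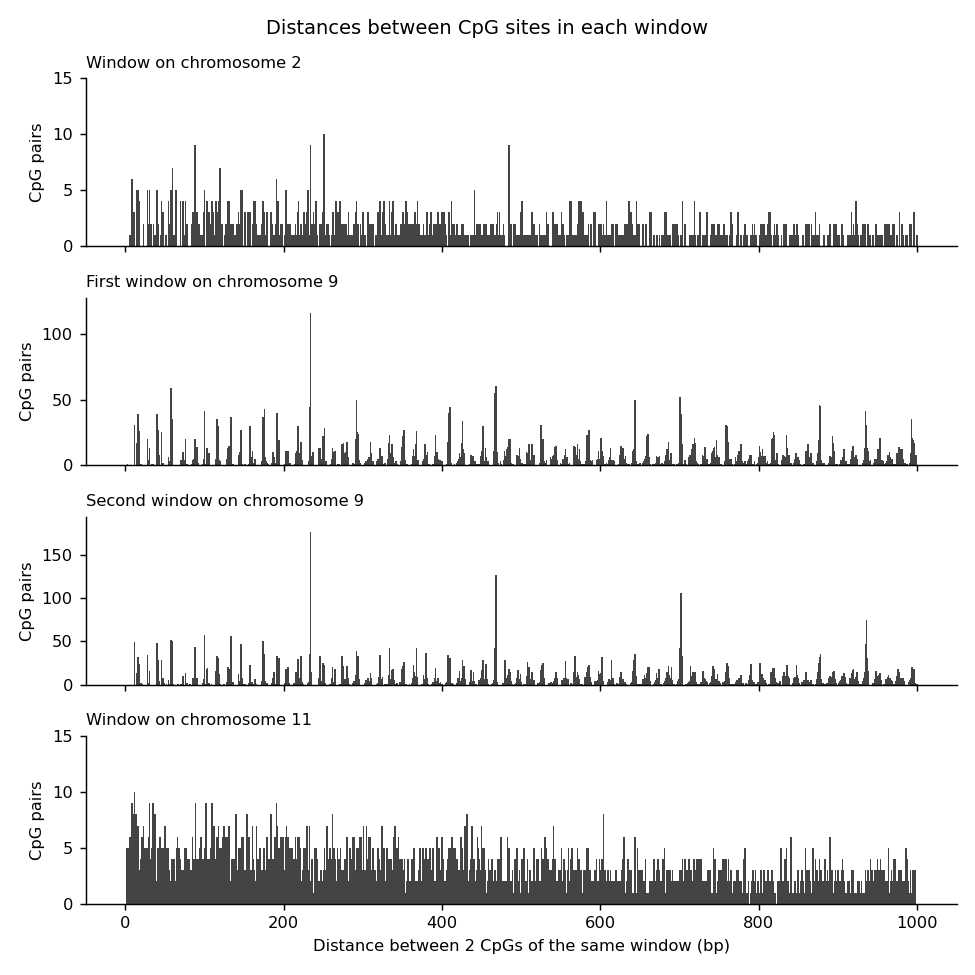
Number of CpG pairs of a window (vertical axis) at each distance up to 1000 bp (horizontal axis, bp), with a panel for each window and its own vertical scale. Peaks at 234 bp and 468 bp stand out in both windows on chromosome 9, with 116 and 177 pairs at 234 bp, whereas the windows on chromosomes 2 and 11 hold 9 and 2 pairs at that distance.

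Over all 236 sites, methylation was highest in the DNMT3A2 line and lowest in the DNMT3B1 line. The pooled level, methylated reads over all reads, was 5.53% in the SETD2 knockout line (95% interval 5.52 to 5.54), 2.12% in the DNMT3B1 line (2.11 to 2.13) and 8.24% in DNMT3A2 cells (8.23 to 8.25). Medians over sites were 5.86%, 1.85% and 7.20% in the same order. These levels can be set against 7065841 sites of ordinary coverage across the genome, at 5.87% in the SETD2 knockout line, 2.75% in the DNMT3B1 line and 7.28% in DNMT3A2 cells.

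DNMT3B1 over DNMT3A2 was 0.257 in the pooled levels of the satellite windows, against 0.378 at ordinary sites. SETD2 knockout over DNMT3B1 was 2.61, against 2.13 at ordinary sites. SETD2 knockout over DNMT3A2 was 0.671, against 0.806 at ordinary sites. The window on chromosome 2 gave 23425182 of the 26397024 reads of the SETD2 knockout line, and so weighed most in these ratios. Window by window, DNMT3B1 over DNMT3A2 ran from 0.239 to 0.316 and SETD2 knockout over DNMT3B1 from 2.28 to 3.53. SETD2 knockout over DNMT3A2 ran from 0.639 to 0.943, and exceeded that of ordinary sites on chromosome 11 only. With 1 library a line, these differences have no replicate check. The lines differ in the amount of enzyme they may hold, which was not measured here and cannot be told apart from the enzyme's own activity on the repeat.

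The DNMT3B1 line was the lowest at most sites. The SETD2 knockout line was above the DNMT3B1 line at 234 of 236 sites. The DNMT3B1 line was above the DNMT3A2 line at 13 sites, and the SETD2 knockout line was above the DNMT3A2 line at 55. For ratios at single sites, a level under 3 methylated reads was set to 3 reads. The ratio of the SETD2 knockout to the DNMT3B1 line had a median of 2.89 over sites and ranged from 0.466 to 11.3. The ratio of DNMT3B1 to DNMT3A2 had a median of 0.230 and a far wider range, from 0.0519 to 7.99. On the log2 scale the SD over sites was 0.63 for the ratio of the SETD2 knockout to DNMT3B1 and 1.29 for the ratio of DNMT3B1 to DNMT3A2.

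The windows differed less than the sites within them. Pooled levels on chromosome 2 were 5.37% in the SETD2 knockout line, 2.06% in the DNMT3B1 line and 8.05% in DNMT3A2 cells. The first window on chromosome 9 had 7.41%, 3.25% and 10.3%, and the second had 6.54%, 2.44% and 10.2%, in the same order of lines. On chromosome 11 the SETD2 knockout line had 5.20% (4.97 to 5.43), the DNMT3B1 line 1.47% (1.32 to 1.63) and the DNMT3A2 line 5.51% (5.25 to 5.79). There the SETD2 knockout and the DNMT3A2 line had overlapping intervals, unlike in the other windows.

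Site profiles were most alike between the lines that shared an enzyme. Over the 236 sites Pearson's r was 0.890 between the SETD2 knockout and the DNMT3B1 line, 0.364 between the DNMT3B1 and the DNMT3A2 line, and 0.397 between the SETD2 knockout and the DNMT3A2 line. Spearman's rho was 0.874, 0.468 and 0.428 for the same pairs of lines. In each window the SETD2 knockout and DNMT3B1 lines correlated most, with r between 0.775 and 0.947. The DNMT3B1 and DNMT3A2 lines had r of 0.117 on chromosome 2 and 0.121 on chromosome 11, against 0.598 and 0.468 in the windows on chromosome 9. These values describe sites that share reads and repeat copies.

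**Figure D2:**
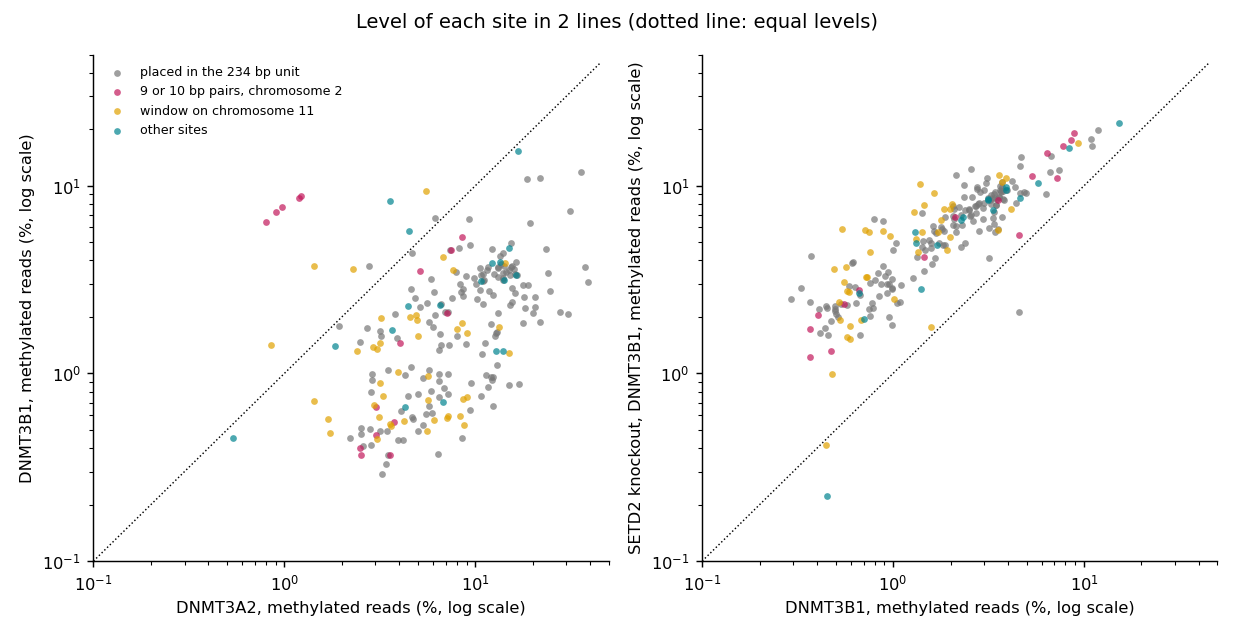
Level of each of the 236 sites in percent of reads methylated, on log axes: the DNMT3B1 line against the DNMT3A2 line (left) and the SETD2 knockout line against the DNMT3B1 line (right), with levels under 3 methylated reads drawn at that floor. The left cloud is wide and 13 sites lie above the line of equal levels, among them 5 sites of CpG pairs on chromosome 2, while on the right 233 of 236 sites lie above it. One site on chromosome 11, with 2 and 1 methylated reads, is drawn below the line by that floor, although its level was higher in the SETD2 knockout line.

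The sites were then placed within the repeat unit to ask which of its CpGs each enzyme methylated. The planned placement, position modulo 234 bp within runs of linked sites, gave only 4 position groups of at least 5 sites, with 32 sites, all in the second window on chromosome 9. Between these groups lay 32.8% of the variance of levels in the SETD2 knockout line, 11.9% in the DNMT3B1 line and 16.1% in DNMT3A2 cells. A register model that follows shifts of the repeat along a window and reads both orientations, from positions alone, was added after the data had been seen. Its settings were changed once, after the first result had been viewed together with methylation levels. It placed 159 of the 236 sites at 8 CpGs of the unit, 28 on chromosome 2, 55 and 76 in the windows on chromosome 9 and 0 on chromosome 11. Between the 8 CpGs lay 38.5% of the variance in the SETD2 knockout line, 28.4% in the DNMT3B1 line and 24.1% in DNMT3A2 cells. The share that the number of groups alone would give was not computed. The unit CpGs below are those of the register model, numbered from an arbitrary start. The planned groups did not match them throughout. One planned group held CpG 8 alone, while the others mixed CpGs 1 and 7, CpGs 3 and 8, and CpGs 2 and 4.

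The CpGs were groups of sites within 2 bp of 0, 28, 46, 88, 104, 117, 174 and 222 bp from CpG 1. In the SETD2 knockout line CpG 5 had the highest median, 8.98%, and CpG 7 the lowest, 2.34%. In the DNMT3B1 line CpG 6 was highest, at 3.56%, and CpG 4 lowest, at 0.575%. In the DNMT3A2 line CpG 2 was highest, at 15.4%, and CpG 4 was again lowest, at 4.59%. The highest median exceeded the lowest by 3.83-fold in the SETD2 knockout line, by 6.19-fold in the DNMT3B1 line and by 3.34-fold in the DNMT3A2 line. These extremes depended in part on depth and on the number of copies required. With 10000 or more reads and 5 copies required, CpG 4 was the lowest in the SETD2 knockout line, at 2.60%. CpG 2 was then the highest in the DNMT3B1 line, at 3.47%, while the other extremes fell on the same CpGs. The minimum of 5 copies left out CpG 6. Its 4 copies at that depth had medians of 9.32% in the SETD2 knockout line and 4.01% in the DNMT3B1 line. Both were above the highest of the CpGs kept, 9.03% and 3.47%.

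CpG 1 was low in both lines with DNMT3B1 and high in the DNMT3A2 line. Its 22 copies had a median of 3.11% in the SETD2 knockout line (1.74 to 19.9), 1.04% in the DNMT3B1 line (0.440 to 11.9) and 12.3% in DNMT3A2 cells (3.94 to 35.6). CpG 7 had medians of 2.34%, 0.781% and 6.43% in 9 copies, low in both lines with DNMT3B1. It was not high in the DNMT3A2 line, whose median over all sites was 7.20%. CpG 4, with 29 copies, was poor in every line, at 2.49% in the SETD2 knockout line (1.60 to 6.65), 0.575% in the DNMT3B1 line (0.277 to 2.09) and 4.59% in DNMT3A2 cells (2.21 to 20.05).

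CpG 8 leaned the other way. Its 24 copies had a median of 6.14% in the SETD2 knockout line (2.67 to 16.4), 1.79% in the DNMT3B1 line (0.797 to 11.03) and 4.88% in DNMT3A2 cells (1.93 to 31.5). CpG 3, with 21 copies, had 7.71%, 2.71% and 7.54% in the same order of lines. At both CpGs the median of the SETD2 knockout line was above that of the DNMT3A2 line, which was not so at the other 6. The order was not firm, since levels pooled over copies ran the other way, with 6.04% in the SETD2 knockout line and 6.20% in the DNMT3A2 line at CpG 8, and 7.57% and 7.69% at CpG 3. At CpG 3 the median of the SETD2 knockout line was also the lower one on chromosome 2 (7.80% against 8.32%) and in the first window on chromosome 9 (7.71% against 8.26%).

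CpGs 2, 5 and 6 were well methylated in every line. CpG 2 had medians of 7.26% in the SETD2 knockout line, 3.36% in the DNMT3B1 line and 15.4% in DNMT3A2 cells over 23 copies. CpG 5 had 8.98%, 3.18% and 11.03% over 20 copies, and its copies in the SETD2 knockout line ran from 7.54% to 11.02%. CpG 6 had 6.95%, 3.56% and 13.5% over 11 sites. They included positions 3000469 and 3000472 of chromosome 9, at 116 and 119 bp, so they are not all copies of a single CpG. These had 2.36%, 1.04% and 5.74%, and 5.96%, 3.16% and 11.07%, in the same order of lines.

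**Figure D3:**
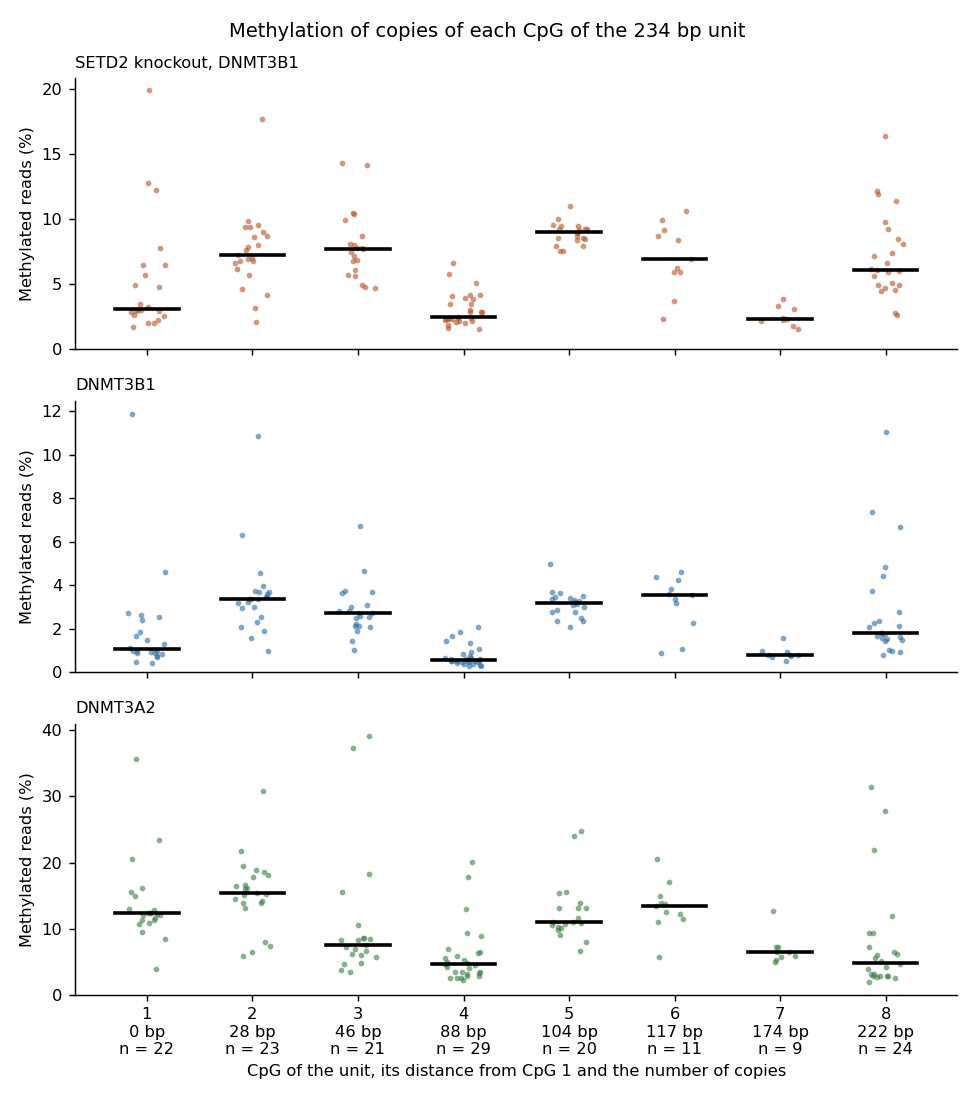
Percent of reads methylated (vertical axis, a scale for each panel) at copies of the 8 CpGs of the 234 bp unit (horizontal axis, with the distance from CpG 1 and the number of copies) in the SETD2 knockout, DNMT3B1 and DNMT3A2 lines from top to bottom. Points are single copies and bars are medians, which are low at CpGs 1, 4 and 7 in both DNMT3B1 lines, while CpG 1 is at 12.3% in the DNMT3A2 line.

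Copies of the same CpG still ranged widely, and medians of some CpGs differed between windows. At CpG 4 the DNMT3B1 line had medians of 0.567%, 0.593% and 0.514% in the window on chromosome 2 and the first and second windows on chromosome 9, with 4, 10 and 15 copies. At CpG 1 the DNMT3A2 line had 11.3%, 12.4% and 12.4% in the same windows, with 3, 7 and 12 copies. Those copies of CpG 1 had medians of 2.01%, 4.94% and 3.37% in the SETD2 knockout line and of 0.957%, 2.39% and 1.19% in the DNMT3B1 line. The copy of CpG 1 at position 3004562 of chromosome 9 was the highest in every line, at 19.9% in the SETD2 knockout line, 11.9% in the DNMT3B1 line and 35.6% in DNMT3A2 cells.

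Shallower sites of the windows, with 10 to 499 reads, were left out by the depth rule and could be placed at too few copies for the same comparison. Only CpGs 3, 4 and 8 had at least 5 such copies, 32 sites in all, and CpG 4 had the lowest median of the 3, at 2.88% in the SETD2 knockout line, 0% in the DNMT3B1 line and 2.84% in DNMT3A2 cells. Between these 3 CpGs lay 16.2% of the variance in the SETD2 knockout line, 9.81% in the DNMT3B1 line and 7.95% in DNMT3A2 cells, shares that cannot be set against those between 8 CpGs. At 9 of the 11 shallow copies of CpG 4 the DNMT3B1 line had fewer than 3 methylated reads.

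The preference of each enzyme was read site by site as a relative log2 ratio, the log2 ratio of 2 lines at a site minus that of their pooled levels over the 236 sites. A site was called at 1.5-fold or more, with the same minimum of 3 methylated reads. For DNMT3B1 over DNMT3A2, 53 of 236 sites were relatively higher and 90 relatively lower. Of all 940 sites of the genome with 500 or more reads in each line, 73.1% were relatively higher and 12.6% relatively lower by the same measure. The 704 deep sites outside the windows had a median of 0.527% in the SETD2 knockout line, 0.125% in the DNMT3B1 line and 0.0793% in DNMT3A2 cells. Their pooled levels were 4.08%, 1.42% and 5.61% in the same order of lines, so medians and pooled levels put DNMT3B1 and DNMT3A2 in opposite order. Both the DNMT3B1 and the DNMT3A2 level were set by the minimum of 3 reads at 363 of these 704 sites, against 0 of the 236, so that the ratio of such a site is one of read depths. The calls over all deep sites are therefore no measure of preference to set the 236 sites against.

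The calls differed between the CpGs of the unit. DNMT3B1 was relatively lower at 19 of 22 copies of CpG 1, 22 of 29 of CpG 4 and 9 of 9 of CpG 7, with median relative log2 ratios of -1.330, -1.003 and -1.034. At copies with 10000 or more reads these counts were 12 of 13, 5 of 10 and 6 of 6, with medians of -1.20, -0.63 and -0.97. The lean at CpG 4 was thus weaker at the deepest copies. DNMT3B1 was relatively higher at 13 of 24 copies of CpG 8, with a median of 0.68, and relatively lower at 1. With 10000 or more reads it was relatively higher at 5 of 10 copies of CpG 8, with a median of 0.50. At CpG 3 it was relatively higher at 6 of 21 copies and relatively lower at 3, with a median of 0.34, a share of higher calls near the 22.5% over all 236 sites. CpGs 2, 5 and 6 had medians of -0.19, 0.12 and 0.11.

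For the SETD2 knockout over DNMT3B1, 59 sites were relatively higher and 16 relatively lower. Of the 940 deep sites of the genome, 16.1% were relatively higher and 35.4% relatively lower, with the DNMT3B1 level set by the minimum of 3 reads at 447 of them. CpG 4, the poorest CpG of the DNMT3B1 line, held 19 of these 59 sites among its 29 copies, with a median relative log2 ratio of 0.66. No other unit CpG had more than 4 relatively higher copies. The window on chromosome 11 held 22 of the 59 among its 43 sites, where reads were fewest and the DNMT3B1 line had a median of 555 reads per site.

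The sites with the highest DNMT3B1 preference all lay on chromosome 2 and outside the 234 bp unit. The spacing of CpGs thus did not bear out the major satellite label for these sites. At position 98506541, 11.04% of reads were methylated in the SETD2 knockout line, 7.25% with DNMT3B1 and SETD2 present (253 of 3491 reads) and 0.907% with DNMT3A2 (35 of 3859 reads). The relative log2 ratio, DNMT3B1 over DNMT3A2, was 4.96 there. At position 98502713 the levels were 15.0%, 6.38% and 0.799% in the same order of lines, with a ratio of 4.96, and at position 98502833 they were 16.3%, 7.73% and 0.976%, with 4.94. The SETD2 knockout and DNMT3B1 lines thus had several times the methylation of the DNMT3A2 line at these sites, against the trend of the windows.

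The lowest DNMT3B1 preference was found on chromosome 9. The copy of CpG 6 at position 3023537 had 3.73% in the SETD2 knockout line, 0.881% in the DNMT3B1 line and 17.0% in DNMT3A2 cells, and a relative log2 ratio of -2.31. Copies of CpG 1 at positions 3018390 and 3032424 followed, with -2.27 and -2.25. At 3032424 the levels were 2.60% in the SETD2 knockout line, 0.673% in the DNMT3B1 line and 12.4% in DNMT3A2 cells.

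The SETD2 knockout was relatively highest over DNMT3B1 at position 3022862 of chromosome 9, a copy of CpG 4. That site had 4.20% in the SETD2 knockout line and 0.371% in the DNMT3B1 line, where only 3 of 809 reads were methylated, and a relative log2 ratio of 2.12. Position 3093448 of chromosome 11 had 2.06 with 2 methylated reads of 555 in the DNMT3B1 line, and position 3038006 of chromosome 9, another copy of CpG 4, had 1.73 with 8 of 2429. These extremes rest on few methylated reads.

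The SETD2 knockout was below the DNMT3B1 line at 2 sites. At position 3022802 of chromosome 9, a copy of CpG 2, it had 2.12% (25 of 1180 reads) against 4.55% in the DNMT3B1 line (24 of 528 reads), and a relative log2 ratio of -2.49. At position 98502984 of chromosome 2 it had 0.221% of 88063 reads, against 0.452% of 70868 in the DNMT3B1 line, and a ratio of -2.41. That site was also the lowest of all in the SETD2 knockout and the DNMT3A2 lines, with 0.539% in the DNMT3A2 line. Its level in the SETD2 knockout line was below the 0.473% of CpG-dense sites of that line. With the level of CpG-dense sites subtracted, the ratio was -7.81, a value for which the minimum of 3 reads set the SETD2 knockout level. Position 3093190 of chromosome 11 followed with -1.48, a value that the minimum of 3 reads set in both lines. The levels there were 0.279% in the SETD2 knockout line and 0.149% in the DNMT3B1 line, on 2 and 1 methylated reads. The SETD2 knockout level was thus the higher one at that site.

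The highest levels fell on other sites. Position 98504064 of chromosome 2 had the highest level of the SETD2 knockout line, 21.7%, and of the DNMT3B1 line, 15.2%, with 16.6% in the DNMT3A2 line. The DNMT3A2 line was highest at position 3032470 of chromosome 9, a copy of CpG 3, with 39.1%, where the SETD2 knockout line had 10.4% and the DNMT3B1 line 3.07%. The DNMT3B1 line had no methylated read at 3 sites, all on chromosome 11. At position 3084941, 0 of 529 reads were methylated, with an upper limit of 0.695%.

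The 3 sites of highest DNMT3B1 preference belonged to CpG pairs 9 bp apart. This was noticed in the values, and the rule for pairs was made afterwards: CpGs 9 or 10 bp apart, in pairs that recur at 118 to 122 bp. Chromosome 2 had 9 such pairs, 8 of them with 500 or more reads at both CpGs. Chromosome 11 had 4, and the windows on chromosome 9 had 0. The CpG of a pair with more methylation in the DNMT3B1 line was taken as the first of the comparison, so the DNMT3B1 contrast within a pair follows from that choice. The rule was made from sites with the highest ratio of DNMT3B1 to DNMT3A2, and 5 sites of the pairs are among the 10 highest, so a low DNMT3A2 level at the chosen CpG follows from it in part too. The pairs are a description and support nothing else.

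In the 5 deep pairs 9 bp apart on chromosome 2, the DNMT3A2 line had less methylation at the chosen CpG than at its neighbour. The CpG chosen had 11.04 to 19.0% in the SETD2 knockout line, 6.38 to 8.85% in the DNMT3B1 line and 0.799 to 1.23% in DNMT3A2 cells. Its neighbour 9 bp away had 1.23 to 2.35% in the SETD2 knockout line, 0.366 to 0.554% in the DNMT3B1 line and 2.50 to 3.76% in DNMT3A2 cells. DNMT3B1 over DNMT3A2 was 7.19 to 7.99 at the chosen CpG and 0.103 to 0.161 at the neighbour. The deepest pair, at positions 98505340 and 98505349, had at least 187042 reads at each CpG in each line. The chosen CpG was the one with the lower coordinate in 3 of the 5 pairs.

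Pairs 10 bp apart differed from these. In the 3 on chromosome 2 the CpG with more DNMT3B1 methylation also had more in the DNMT3A2 line, at 5.11 to 8.56% against 3.02 to 7.08% at its neighbour. DNMT3B1 over DNMT3A2 at that CpG was 0.611 to 0.689. On chromosome 11 DNMT3B1 over DNMT3A2 was 0.217 to 0.457 at the chosen CpG of the 3 pairs 9 bp apart, below the 7.19 to 7.99 of chromosome 2. In the DNMT3A2 line the chosen CpG was lower than its neighbour in 2 of these 3 pairs, with 5.04% against 5.59% and 8.57% against 13.3%, and higher in the other, with 3.17% against 2.39%. The single pair 10 bp apart there had 4.97% against 9.06%. These pairs rest on 1 to 10 methylated reads per CpG in the DNMT3B1 line.

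**Figure D4:**
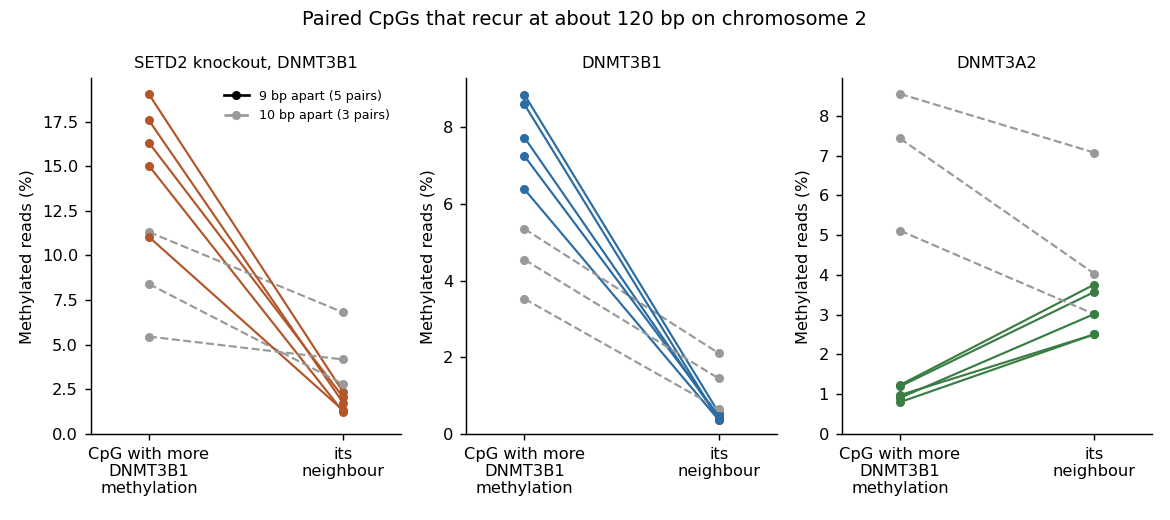
Percent of reads methylated (vertical axis, a scale for each panel) at both CpGs of the 8 recurring pairs on chromosome 2, joined by lines, in the SETD2 knockout, DNMT3B1 and DNMT3A2 lines. Solid lines are the 5 pairs 9 bp apart, which fall to the neighbour in both DNMT3B1 lines and climb in the DNMT3A2 line (0.799 to 1.23% at the chosen CpG, 2.50 to 3.76% at its neighbour), and dashed lines are the 3 pairs 10 bp apart.

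Reads were shared out between sites differently in the SETD2 knockout library. Its reads over those of the DNMT3A2 line ranged from 0.449 to 9.79 between sites, whereas reads of the DNMT3B1 over the DNMT3A2 line ranged from 0.733 to 1.04. Among the 159 placed copies, the deviation of a copy's log2 level from the median of its CpG had r = 0.108 with the log2 read ratio of the SETD2 knockout to the DNMT3A2 line in the SETD2 knockout line, 0.064 in the DNMT3B1 line and 0.477 in DNMT3A2 cells. At 24 copies with a read ratio of 2 or more, a limit set after the values were seen, the DNMT3A2 line had a median of 17.9%, against 8.26% at the 135 others. The SETD2 knockout line had 6.88% and 5.75% at these copies, and the DNMT3B1 line 2.43% and 2.06%. The highest DNMT3A2 level, at position 3032470, and the lowest DNMT3B1 preference, at position 3023537, were at sites with read ratios of 4.51 and 3.15. The run labels of the SETD2 knockout line, single and paired-end, also differ in kind from those of the other lines, which name sequencers. The part of the placement of reads or of the type of run in these levels was not tested.

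**Figure D5:**
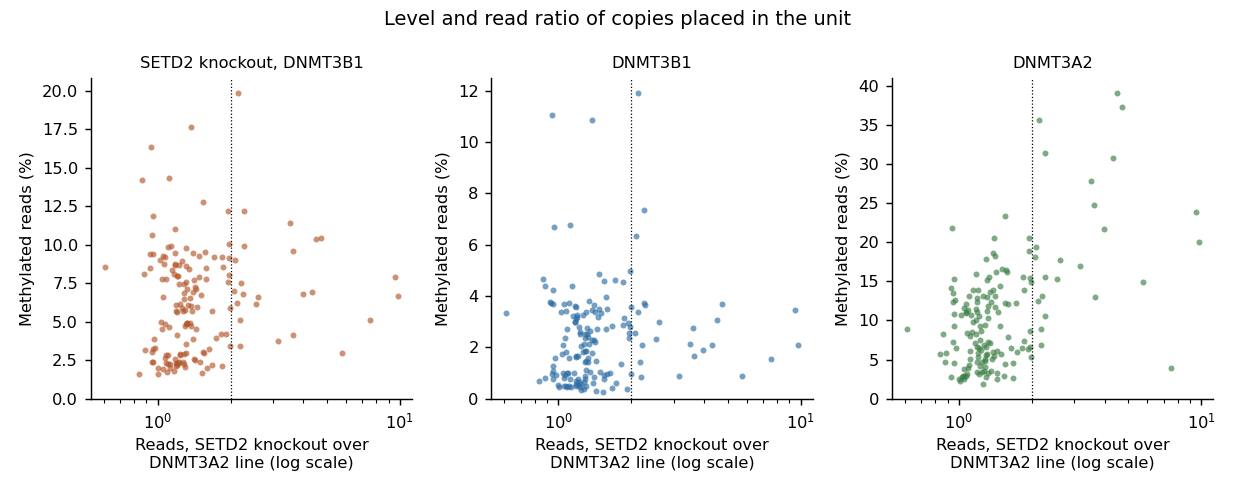
Percent of reads methylated at the 159 placed copies (vertical axis, a scale for each panel) against the ratio of reads in the SETD2 knockout line to the DNMT3A2 line (horizontal log axis), in the SETD2 knockout, DNMT3B1 and DNMT3A2 lines. The dotted line is a ratio of 2, right of which the 24 copies have a median of 17.9% in the DNMT3A2 line, against 8.26% at the 135 others.

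Sites on either side of the depth rule lay on chromosome 11. Position 3093701, with 503 reads in the DNMT3B1 line, was just inside, with 16.9% in the SETD2 knockout line, 9.34% in the DNMT3B1 line and 5.53% in DNMT3A2 cells. Position 3093135, with 504 reads, had 1.80%, 0.595% and 8.31% in the same order. Just outside were position 3093599, with 498 reads and levels of 1.81%, 0% and 2.17%, and position 3084993, with 495 reads and levels of 2.25%, 4.24% and 13.3%.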

How the data were processed

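The deposited counts gave, per the file headers, total reads and methylated reads at each CpG for the DNMT3A2 and DNMT3B1 lines, taken as pooled over 2 runs. The deposited SETD2 knockout values held counts and their fraction at sites with at least 10 reads. The 2 knockout files were identical and used once. Per the submitters' processing notes, coordinates are mm9. The sources used here name no aligner or caller and do not say how duplicates or reads with several matches were handled.

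Sites were joined by position. Levels are methylated over all reads, with exact 95% intervals. Ordinary sites had 5 or more reads and at most 5 times the median coverage in each line. In the SETD2 knockout line this came to 10 or more reads, the lowest count listed. The sites and measures were chosen with earlier results of these data known.

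The design placed sites by position modulo the period within linked runs. A register model, a hidden Markov model of position in the unit with both orientations, shifts of up to 3 bp and a state for no repeat, departs from it. It was run with 2 sets of settings. The first left stretches of chromosome 2 unplaced, and the second was kept after the placed stretches, and levels by unit CpG, had been viewed. Unit CpGs needed 8 sites in the windows, a minimum lowered after the data were seen. The pair rule and its division by window and spacing, the subset with 10000 reads and the read ratio of 2 were also set after seeing values. Sequence around the CpGs was planned and not analysed here, since no mm9 genome was used.

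Sites named are the 3 highest and 3 lowest per comparison, the highest and lowest per line, the deepest per window and those next to the depth rule. The work was done in scipy 1.17.1, pandas 2.3.3 and numpy 2.4.6 under Python 3.11.15, with figures from matplotlib 3.10.9, and the methods were tested on simulated data.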

Additional observations from a re-analysis of the deposited data

How the results depend on the processing

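No paired analysis was possible because each line was 1 library and its runs were pooled in the deposited values. No level, ratio or named site below changed direction in the alternatives run, and their limits are those of size. The order of the lines in the share of variance between unit CpGs did change. Values below are for the SETD2 knockout, DNMT3B1 and DNMT3A2 lines in that order. Pooled levels were 6.68%, 2.72% and 8.97% without the tenth of sites with most reads, 6.32%, 2.39% and 9.12% as unweighted means of sites, and 5.06%, 1.97% and 8.03% with the level of CpG-dense sites subtracted. Leaving out a window in turn gave 5.45 to 6.82%, 2.08 to 2.71% and 8.12 to 10.2%.

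In the first 3 of these alternatives, in the same sequence, DNMT3B1 over DNMT3A2 was 0.303, 0.262 and 0.245, SETD2 knockout over DNMT3B1 was 2.46, 2.64 and 2.58, and SETD2 knockout over DNMT3A2 was 0.745, 0.693 and 0.630. Without a window they were 0.255 to 0.266, 2.52 to 2.62 and 0.667 to 0.672. The period stayed at 234 bp.

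For DNMT3B1 over DNMT3A2, 29 sites were relatively higher against the genome-wide ratio and 34 with a minimum of 1000 reads, 58 were relatively lower at 2-fold, and without a window there were 36 to 43 higher and 56 to 75 lower. For the SETD2 knockout over DNMT3B1, 23 were relatively higher at 2-fold, 97 against the genome-wide ratio and 30 with 1000 reads, and 6, 6 and 10 were relatively lower. Without a window there were 37 to 55 higher and 11 to 13 lower. The 37 came without the window on chromosome 11, and the 56 without the second window on chromosome 9. All 80 alternative values of the named sites kept their direction and call, which says little. The 2-fold rule left each value as it was, and another reference ratio or a window left out shifted all sites alike. The minimum of 1000 reads gave no value for positions 3022862 and 3022802 of chromosome 9, which had fewer reads. Nor did it for positions 3093448 and 3093190 of chromosome 11. Position 98502984 of chromosome 2 had -7.81 with the level of CpG-dense sites subtracted, against -2.41.

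The share of variance between unit CpGs depended on the placement, the scale and the depth. In linked runs it was 32.8%, 11.9% and 16.1%, and on log2 levels 46.8%, 26.0% and 23.0%; with 1000 reads the DNMT3B1 line had 19.8%. Alternatives chosen after seeing the data were the register model as kept (38.5%, 28.4% and 24.1%), with its first settings, which placed 152 sites (36.9%, 27.0% and 23.0%), with 10000 reads (47.4%, 33.9% and 51.6%) and on log2 levels (52.6%, 56.9% and 40.5%). Leaving out the second window on chromosome 9 leaves no group in linked runs, and so no value; leaving out any other changed nothing there. Without a window r was 0.853 to 0.916 between the SETD2 knockout and DNMT3B1, 0.257 to 0.498 between DNMT3B1 and DNMT3A2, and 0.299 to 0.519 between the SETD2 knockout and DNMT3A2. With 1000 reads the DNMT3B1 and DNMT3A2 lines had r = 0.289. The cause was not tested for any of these. Depth limits the window on chromosome 11 most, where a few methylated reads set a level.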
